A study of Homo sapiens with 12 samples.

Results

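Genes of the lysosome, of autophagy and of RAB-directed membrane trafficking were followed in SNB19 and SF539, 2 established glioma cell lines labelled GBM, in which PARK2 had been targeted with siRNA. The genes were taken by symbol: every gene whose single annotated symbol begins as a V-ATPase subunit (ATP6V), a cathepsin (CTS plus 1 letter), LAMP1 to LAMP3, an ATG or GABARAP gene, a VPS gene or a RAB gene. This gave 98 of the 8545 genes measured, on 160 probe sets, and each gene was read on its brightest probe set over all 12 arrays. The members comprise 28 RAB GTPases, 17 VPS genes, 15 V-ATPase genes, 15 cathepsins, 13 autophagy genes, 7 RAB partners (proteins named for the RAB they bind) and 3 LAMP genes. VPS72, a chromatin protein, is among them by its symbol, as are GABARAPL3 and RAB9BP1, which are known as pseudogenes. The groups were SNB19 with PARK2 siRNA#1, SNB19 with PARK2 siRNA#2 and SNB19 with scramble siRNA, and SF539 with the same 3 siRNAs, with 2 Affymetrix arrays each. All cells received a siRNA by lipid transfection and were harvested 48 h later, and no untransfected cells were among the arrays, so a difference from scramble can lie with either arm. Whether the replicates were separate cultures is not stated in the labels; the p-values rest on the spread between these arrays, which may be technical, and 2 arrays per group limit the precision.

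Parkin, the product of PARK2, is a ubiquitin ligase best known for tagging damaged mitochondria, which autophagosomes then enclose and deliver to lysosomes. Autophagosomes grow when ATG8-family proteins (GABARAP and LC3) are joined to lipid by the ATG5-ATG12 ligase. VPS complexes and RAB GTPases direct the tethering and fusion of endosomes, autophagosomes and lysosomes, the V-ATPase acidifies the lumen, and the cathepsins digest the cargo there. Many lysosomal genes carry an E-box, CACGTG, near their start, which the transcription factors TFEB, TFE3 and MITF can bind, and some cathepsin genes, CTSS among them, are also induced by interferon.

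Values are on the log2 scale, so a difference of 1 is a 2-fold difference, and levels are compared only within a probe set. Array medians lay between 5.94 and 6.14. Of the members, 10 had a mean below 3.98, the mean lower quartile of the arrays, where there is little signal over background. Replicate arrays of SF539 siRNA#2 stood apart, with a median SD over the members of 0.138, against 0.0521 to 0.0825 in the other 5 groups. PARK2 itself was not analysed here, so the knockdown was not checked. Of 10 leukocyte markers, 3 to 5 lay above the lower quartile in each group, and PTPRC, CD2, LYZ and TYROBP lay below it in every group; their summed level was 38.2 to 39.1 with the PARK2 siRNAs and 38.5 to 38.7 with scramble in SNB19, and 38.8 to 40.4 and 39.0 to 40.8 in SF539. Of 7 markers listed for glioma and the glial lineage, 7 were above it in every SNB19 group. In every SF539 group 4 were above it, while GFAP, S100B and FABP7 were below it. The glial list also moved with the siRNAs in SNB19, with 3 genes higher (GFAP by 3.58) and 1 lower, and summed levels of 77.5 to 78.1 with the PARK2 siRNAs and 71.3 to 72.2 with scramble; in SF539, 0 were higher and 2 lower, with sums of 47.9 to 48.7 and 49.7 to 50.3. Interferon-stimulated genes moved with the siRNAs: the summed log2 level of 13 of them was 75.6 to 75.9 with siRNA#1, 79.8 to 83.4 with siRNA#2 and 149.3 to 149.8 with scramble in SNB19, and in SF539 130.8 to 130.9, 131.4 to 132.3 and 135.0 to 135.6. The part of the glial and interferon lists in the results below was not tested.

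The promoter sequences of the members were searched first, because the E-box is the feature that lysosomal genes are known to share. RefSeq (GRCh38.p14) gave a promoter, 250 bases before to 50 after the gene start, for 76 of the 98 members. CACGTG, which reads the same on both strands, was present in 17 of the 76 (22.4%), against 9.27% of the 6832 measured genes with a promoter and 7.43% of all 27305 promoters. The longer TCACGTGA, which contains it, was in 8 (10.5%), against 1.73% and 1.04%. GAAA followed by any 2 bases and GAAA again, the core of interferon-response elements, was searched on both strands and was found in 1 member, RAB27A (1.32%), against 3.23% of measured genes and 3.65% of all promoters. The windows below run from 200 bases before to 20 after the start, 5′ to 3′ on the gene's strand, with the match in capitals. The first 4 belong to genes that were lower in SNB19 with the PARK2 siRNAs and hold the E-box. Windows of E-box members that were higher or not called there are not printed. The last 2 belong to CTSL and CTSC, cathepsins that were also lower there, and hold no match to any of the 3 motifs.
LAMP1, chr13:113297039-113297258 (plus strand): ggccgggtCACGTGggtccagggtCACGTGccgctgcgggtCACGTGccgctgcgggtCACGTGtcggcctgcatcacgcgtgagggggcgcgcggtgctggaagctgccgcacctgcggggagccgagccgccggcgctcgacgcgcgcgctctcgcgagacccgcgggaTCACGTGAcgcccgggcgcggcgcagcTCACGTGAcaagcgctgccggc
VPS11, chr11:119067618-119067837 (plus strand): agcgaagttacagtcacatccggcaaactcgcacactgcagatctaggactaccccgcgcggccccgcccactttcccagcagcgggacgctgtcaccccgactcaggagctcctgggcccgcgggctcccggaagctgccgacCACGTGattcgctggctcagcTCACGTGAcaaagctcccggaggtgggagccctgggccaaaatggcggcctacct
ATP6V0D1, chr16:67481138-67481357 (minus strand): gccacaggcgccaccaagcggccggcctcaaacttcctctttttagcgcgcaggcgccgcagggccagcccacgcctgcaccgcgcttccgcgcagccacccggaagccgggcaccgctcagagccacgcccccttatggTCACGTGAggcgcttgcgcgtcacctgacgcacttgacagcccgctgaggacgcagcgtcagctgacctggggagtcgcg
ATP6V1G1, chr9:114587569-114587788 (plus strand): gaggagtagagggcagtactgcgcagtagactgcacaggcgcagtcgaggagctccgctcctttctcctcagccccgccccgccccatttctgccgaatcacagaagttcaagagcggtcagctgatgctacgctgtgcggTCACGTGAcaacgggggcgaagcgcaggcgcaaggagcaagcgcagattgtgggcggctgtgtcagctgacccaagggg
CTSL, chr9:87725919-87726138 (plus strand): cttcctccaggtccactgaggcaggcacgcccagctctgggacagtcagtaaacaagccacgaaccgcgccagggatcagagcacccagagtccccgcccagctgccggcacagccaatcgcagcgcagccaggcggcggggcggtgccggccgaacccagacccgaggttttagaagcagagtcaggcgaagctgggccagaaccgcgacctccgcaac
CTSC, chr11:88337717-88337936 (minus strand): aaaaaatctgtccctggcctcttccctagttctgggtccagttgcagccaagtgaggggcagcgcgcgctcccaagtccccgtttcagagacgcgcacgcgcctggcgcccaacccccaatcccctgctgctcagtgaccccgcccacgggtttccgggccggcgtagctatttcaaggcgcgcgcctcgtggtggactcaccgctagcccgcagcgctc

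LAMP1 held 6 matches, VPS11 held 2, and ATP6V0D1 and ATP6V1G1 held 1 each. Of the 17 members with CACGTG, 3 were higher and 7 lower in SNB19 with the PARK2 siRNAs, with a median change of -0.18. Of the 59 without it, 8 were higher and 20 lower, with a median of -0.12. In SF539 the counts were 1 higher and 2 lower of 17, and 5 higher and 2 lower of 59. Over all genes, 15.5% were higher and 17.4% lower in SNB19, and 5.8% were higher and 4.01% lower in SF539. The higher members with an E-box in SNB19 were ATP6V0E2, RAB4A and VPS50, so the motif was present among genes that moved in both directions. A match is only a description of these letters. CTSS, CTSK, CTSO, CTSB, LAMP2 and VPS13B had no entry.

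The first question was how these genes respond to PARK2 siRNA in SNB19. The cathepsins CTSS, CTSL and CTSC fell furthest, GABARAPL1 and ATG5 of the autophagy group also fell, and VPS13A, VPS13B, RAB22A, RAB4A and RAB13 rose. In all, 46 of the 98 members passed the test against scramble, the mean of both siRNAs being compared (limma, Benjamini-Hochberg adjusted p under 0.05). Of these 16 were higher and 30 lower, or 46.9%, against 32.8% of all genes (15.5% higher and 17.4% lower). The median change was -0.10 over the members and -0.01 over all genes. This split depends on the scaling: with each array centred on its median, the median of all genes moved to 0.12, and 20 members were higher and 12 lower, with 35.9% of all genes called and 68.3% of those higher in place of 47.1%. Leaving out scramble replicate 1, scramble replicate 2 or siRNA#1 replicate 2 reduced the members called to 20, 26 and 28. Of the 29 called members named by the rule, 15 kept their call in every alternative run. With siRNA#1 alone 32 members were called, 11 higher and 21 lower, against 26.1% of all genes (12.4% higher and 13.7% lower). With siRNA#2 alone 33 were called, 14 higher and 19 lower, against 29.7% (13.9% and 15.8%). Both siRNAs share the scramble arrays.

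**Figure D1:**
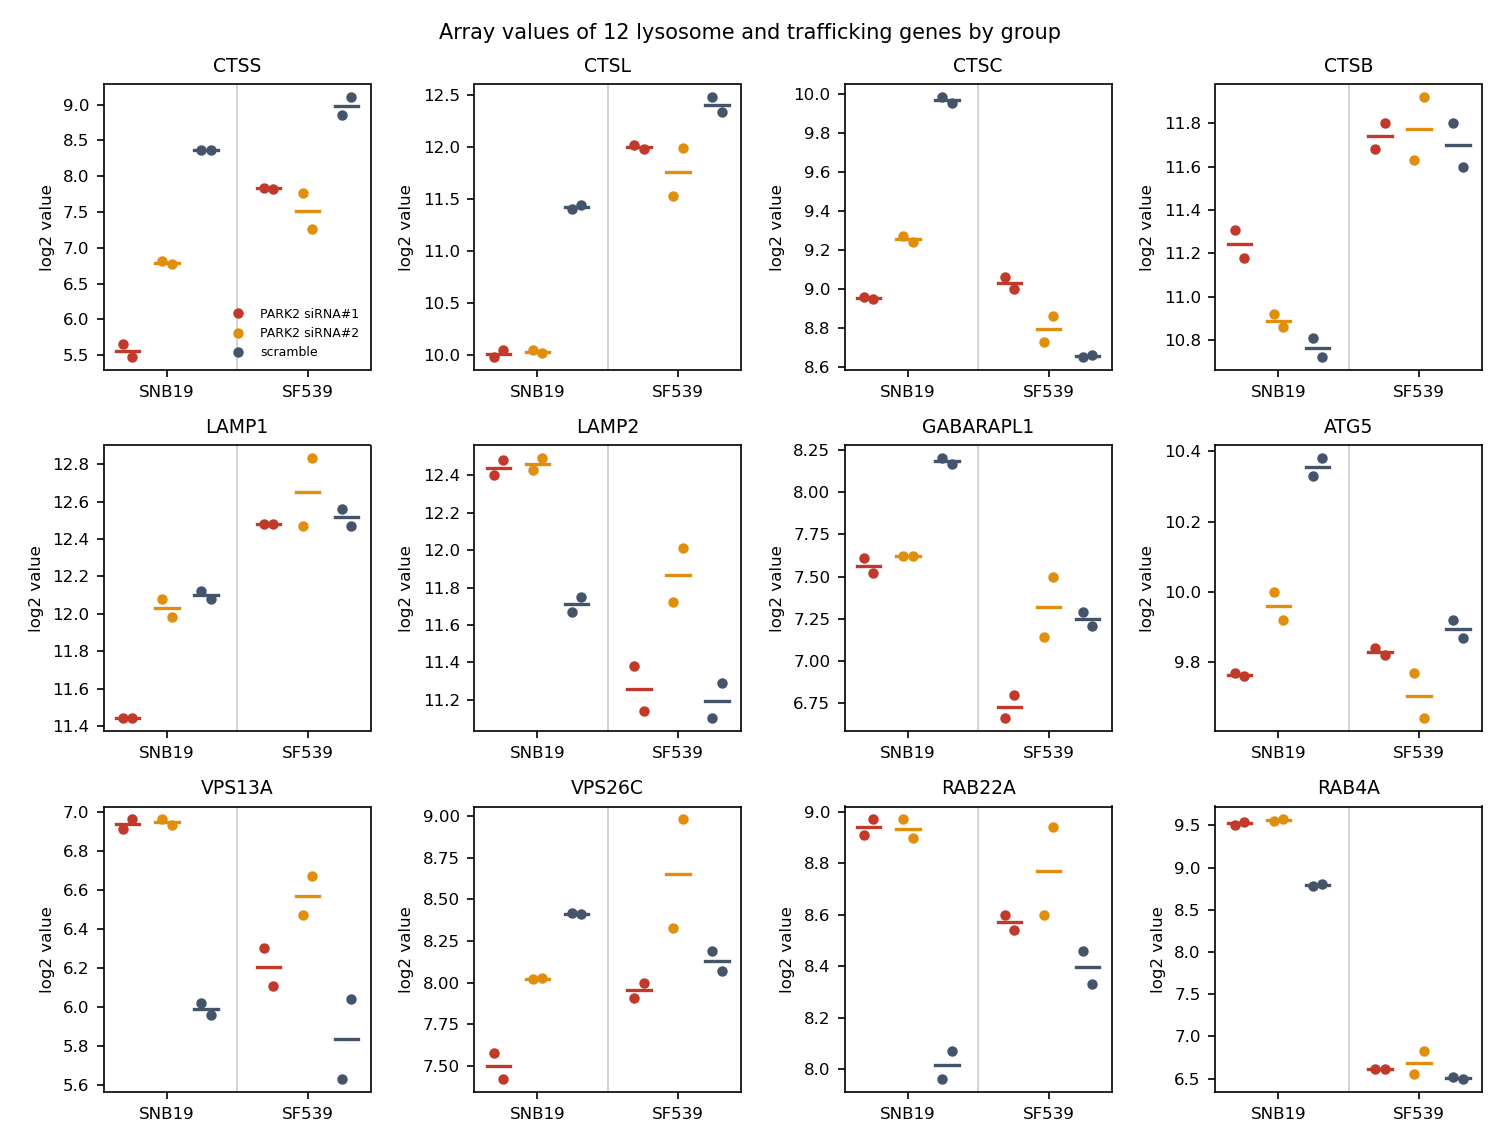
Log2 values of 12 members on every array (vertical axis), in SNB19 (left) and SF539 (right) with PARK2 siRNA#1, PARK2 siRNA#2 and scramble siRNA; points are arrays and bars the mean of 2. CTSS lies lower with both siRNAs in both lines, whereas CTSC is lower in SNB19 and higher in SF539.

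Of the 15 cathepsins, 3 were higher and 6 lower in SNB19 (60%, against 32.8% of all genes). CTSS, a cysteine protease known for trimming the MHC class II invariant chain, had 5.66 and 5.47 with siRNA#1, 6.81 and 6.77 with siRNA#2, and 8.37 and 8.36 with scramble. All 4 siRNA arrays lay below both scramble arrays, those of siRNA#1 lowest. CTSS fell by 2.19 ± 0.13 on the log2 scale (SE), a 4.56-fold lower level (limma adjusted p = 1.59e-06), and its dimmer probe set changed by -1.15. CTSL, an endopeptidase of general lysosomal protein turnover, had 9.98 and 10.05 with siRNA#1, 10.05 and 10.02 with siRNA#2, and 11.41 and 11.45 with scramble. The siRNA arrays lay close together, 2.66-fold below scramble (change -1.41 ± 0.12, adjusted p = 1.36e-05). CTSC, or dipeptidyl peptidase I, which activates granule serine proteases, had 8.96 and 8.95, 9.27 and 9.24, and 9.98 and 9.95 in the same order. It was 1.82-fold lower (-0.87 ± 0.07, adjusted p = 1.15e-05), again without overlap between the groups. The calls of CTSS, CTSL and CTSC held in every alternative run.

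CTSK, the collagen-digesting cathepsin of osteoclasts, had 5.05 and 5.10 with siRNA#1, 4.92 and 4.57 with siRNA#2, and 5.49 and 5.68 with scramble, a low but separated signal that fell by 0.68 ± 0.12 (adjusted p = 0.00164). CTSZ, a carboxypeptidase, fell by 0.66 (adjusted p = 0.0127), but its second probe set changed by 0.12. Its call was lost when both probe sets were averaged (adjusted p = 0.11), and also without scramble replicate 1 (0.0608) or 2 (0.0899). CTSD, the main aspartyl protease of lysosomes, fell by 0.24 (adjusted p = 0.0396), and this call was lost with median centring (-0.11), without scramble replicate 1 (-0.15, adjusted p = 0.327) and without any 1 of the 4 siRNA arrays (0.0705 to 0.101). CTSB, the abundant cysteine protease that can cut inside or at the end of proteins, went the other way. Its values were 11.31 and 11.18 with siRNA#1, 10.92 and 10.86 with siRNA#2, and 10.81 and 10.72 with scramble. All siRNA arrays were above scramble, siRNA#1 most, and all 4 probe sets had a change above 0. The mean rise of 0.30 ± 0.10 was close to the threshold (adjusted p = 0.0451), and the call was lost without any 1 of the SNB19 arrays, with adjusted p between 0.0608 and 0.23. CTSO, a little-studied cysteine cathepsin, rose by 0.29 (adjusted p = 0.0257) and CTSG, a neutrophil granule protease at a low level here, by 0.40 (adjusted p = 0.0334).

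**Figure D2:**
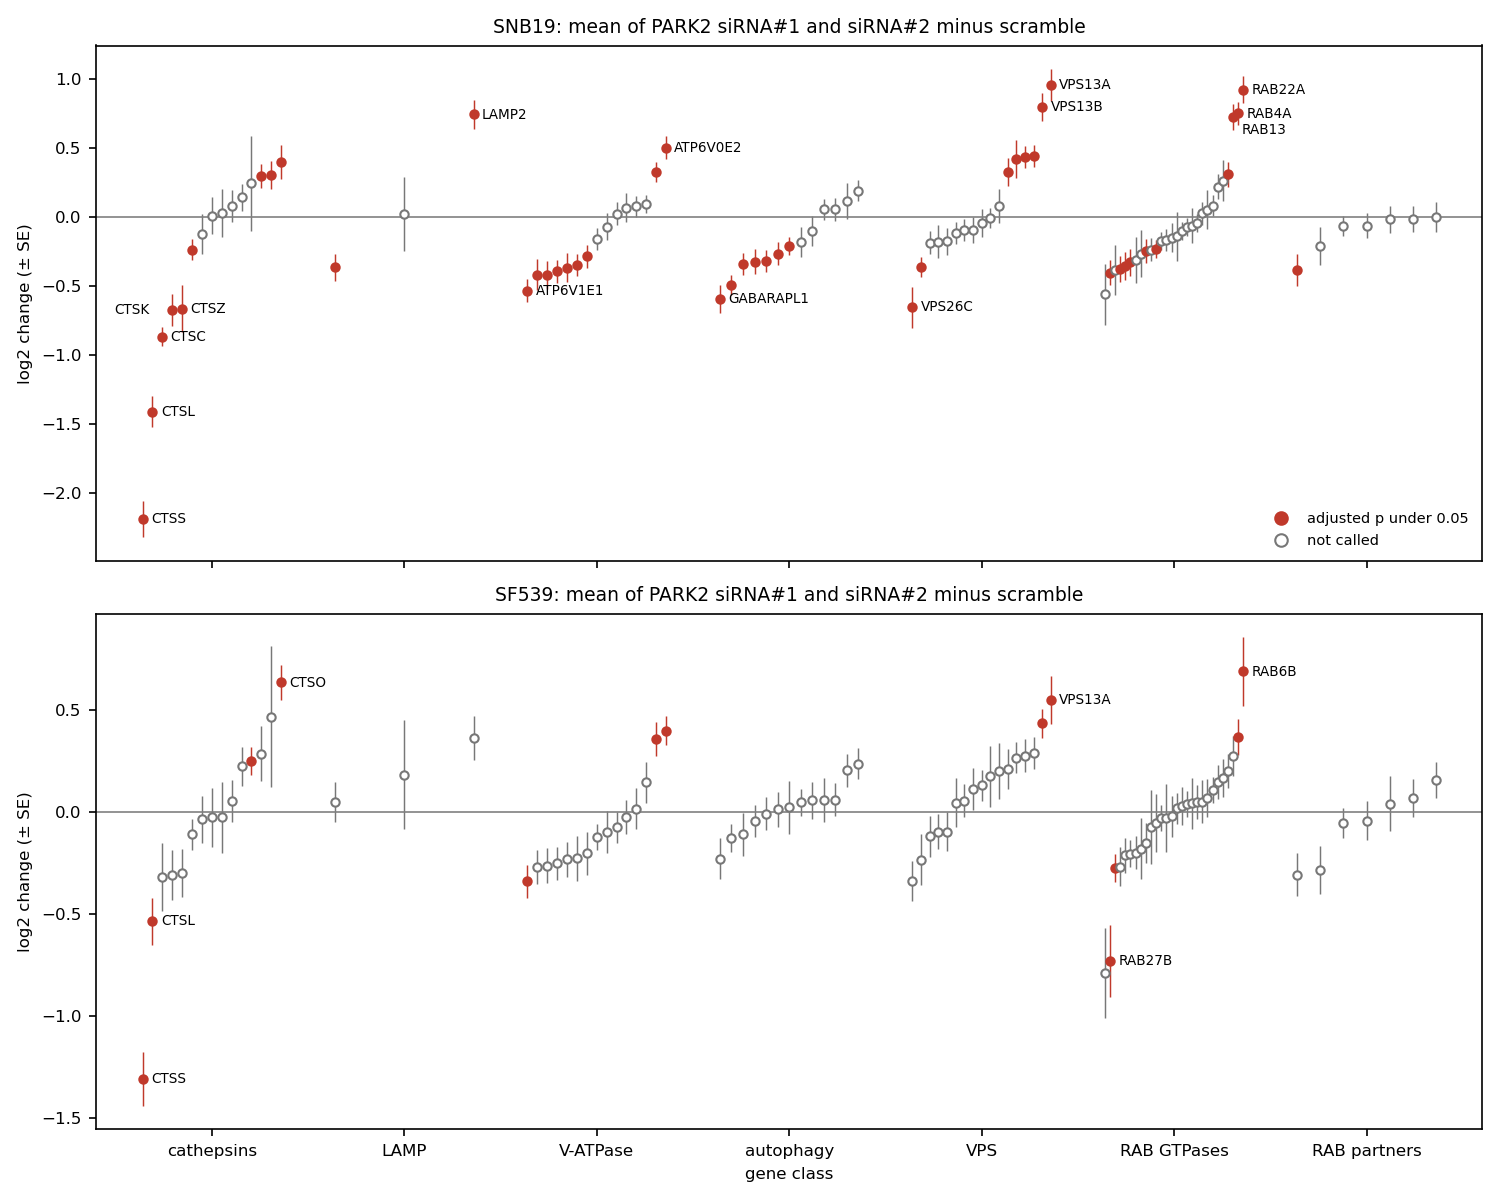
Log2 change of each of the 98 members with the PARK2 siRNAs (mean of both minus scramble, ± SE of the fit; vertical axis) by gene class (horizontal axis, ordered by change within a class), in SNB19 (top) and SF539 (bottom). Filled points passed an adjusted p of 0.05: 46 members in SNB19 and 13 in SF539, with CTSS lowest among the called members in both.

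The LAMP proteins are the main glycoproteins of the lysosomal membrane. LAMP1 had 11.44 on both siRNA#1 arrays, 12.08 and 11.98 with siRNA#2, and 12.12 and 12.08 with scramble. The siRNA#1 arrays were clearly low and the siRNA#2 arrays overlapped with scramble, so the mean fall of 0.36 ± 0.10 (adjusted p = 0.0169) came from siRNA#1 (-0.66, adjusted p = 0.00179). siRNA#2 changed LAMP1 by -0.07 without passing the test, and the siRNAs differed by 0.59 ± 0.11 (siRNA#2 minus siRNA#1, adjusted p = 0.0153). All 4 LAMP1 probe sets were lower in SNB19, by 0.36 to 0.55, but the call for the mean was lost with median centring (adjusted p = 0.104) and without scramble replicate 1 (0.11), scramble replicate 2 (0.0755) or siRNA#2 replicate 2 (0.0526). LAMP2, which also serves chaperone-mediated autophagy, had 12.40 and 12.48, 12.43 and 12.49 with the siRNAs, and 11.67 and 11.75 with scramble. This brightest probe set rose 1.67-fold (0.74 ± 0.11, adjusted p = 0.000507), without overlap. The other 2 probe sets changed by -0.13 and 0.05, and the mean of the 3 did not pass (0.22, adjusted p = 0.103). LAMP2 has isoforms with different last exons, and which isoform each probe set reads was not analysed here. LAMP3, known from dendritic cells, lay below the lower quartile with 2.78 to 3.22 on all SNB19 arrays.

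**Figure D3:**
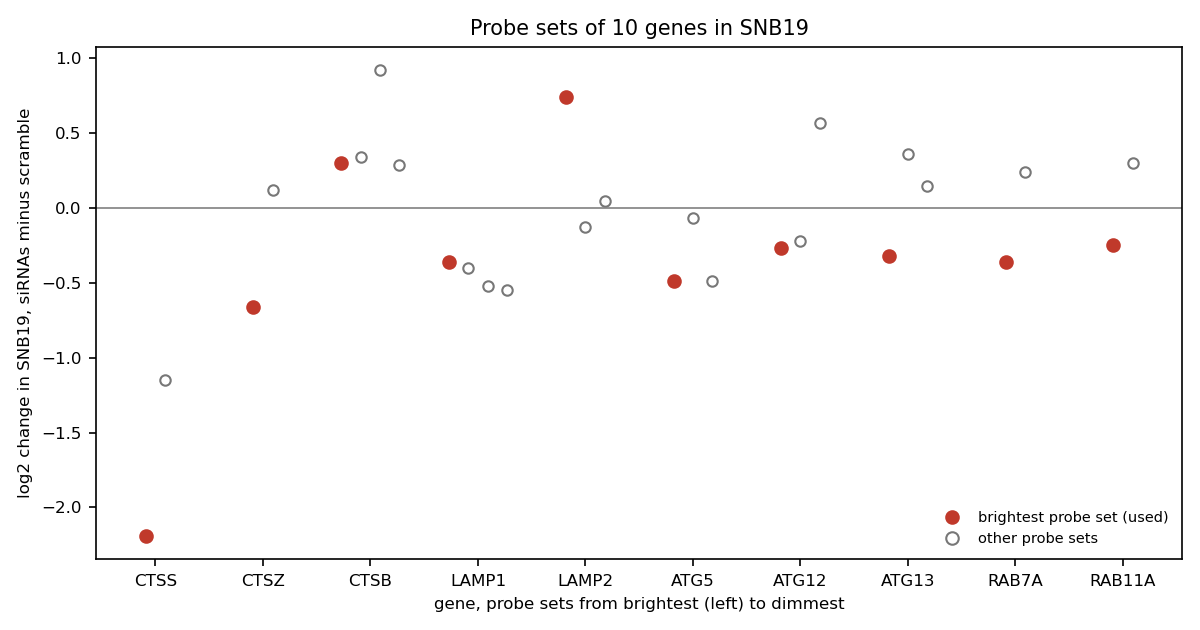
Log2 change in SNB19 (mean of PARK2 siRNAs minus scramble; vertical axis) of every probe set of 10 members, from the brightest (left, filled, the one used) to the dimmest. The probe sets of CTSS, CTSB and LAMP1 share a direction, whereas those of LAMP2, CTSZ, ATG12, ATG13, RAB7A and RAB11A do not.

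Of the 15 V-ATPase genes, 2 were higher and 7 lower in SNB19 (60%, against 32.8% of all genes). With median centring 3 were higher and 2 lower. ATP6V1E1, of the stalk that joins the ATP-splitting V1 part to the membrane part, had 10.11 and 10.09 with siRNA#1, 10.28 and 10.21 with siRNA#2, and 10.71 on both scramble arrays. It fell by 0.53 ± 0.09 (adjusted p = 0.00096) and kept its call in every alternative run. ATP6V0D1, of the membrane part V0, fell by 0.42 ± 0.11 (adjusted p = 0.016), a call lost with median centring (adjusted p = 0.0638) and without scramble replicate 1 (0.125), scramble replicate 2 (0.056), siRNA#1 replicate 2 (0.0513) or siRNA#2 replicate 1 (0.0504). The other 5 lower genes, ATP6V0A1, ATP6V1C1, ATP6V0A2, ATP6V0B and ATP6V1G1, changed by -0.42 to -0.29. Further probe sets changed less, by -0.08 for ATP6V0A1, -0.08 for ATP6V0A2, and -0.08 and -0.01 for ATP6V1C1. ATP6V0E2, an isoform of the small e subunit, ran the other way, with 10.10 and 10.03 with siRNA#1, 9.87 and 9.80 with siRNA#2, and 9.49 and 9.41 with scramble. It rose by 0.50 ± 0.08 (adjusted p = 0.00126) and kept its call in every alternative run. ATP6V1A, the catalytic subunit, rose by 0.33 ± 0.07 (adjusted p = 0.00679). Subunits of the same pump therefore lay on both sides of scramble.

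Of the 13 autophagy genes, 7 were lower and 0 higher in SNB19 (53.8%, against 32.8% of all genes), with a median change of -0.21. With median centring 2 were lower and 1 higher, with a median of -0.08. GABARAPL1, an ATG8-family protein, had 7.61 and 7.52 with siRNA#1, 7.62 on both siRNA#2 arrays, and 8.20 and 8.17 with scramble. The groups were well apart, and both of its probe sets were lower. It fell by 0.59 ± 0.10 (adjusted p = 0.00144). ATG5, part of the lipidation ligase, had 9.77 and 9.76, 10.0 and 9.92, and 10.33 and 10.38 in the same order. It fell by 0.49 ± 0.07 (adjusted p = 0.000461), and its other 2 probe sets changed by -0.07 and -0.49. The calls of GABARAPL1 and ATG5 held in every alternative run. GABARAP fell by 0.32 (adjusted p = 0.0127), with 10.99 and 10.95 with siRNA#1, 11.46 and 11.52 with siRNA#2, and 11.57 and 11.53 with scramble. As with LAMP1, the siRNA#1 arrays were low and those of siRNA#2 lay close to scramble; the siRNAs differed by 0.52 ± 0.09 (adjusted p = 0.0122). Its call was lost with median centring (0.113) and without scramble replicate 1 (0.0984) or 2 (0.0568). GABARAPL2 and ATG12 fell by 0.21 and 0.27 (adjusted p = 0.0386 and 0.0355). Both calls were lost with median centring and without either scramble array (adjusted p = 0.145 to 0.168 for GABARAPL2, 0.075 to 0.234 for ATG12), and ATG12 changed by 0.03 (adjusted p = 0.836) when its 3 probe sets were averaged. ATG4A, a protease that prepares ATG8 proteins, and ATG13, of the ULK1 complex, changed by -0.34 and -0.33, but the other ATG13 probe sets by 0.36 and 0.15.

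Of the 17 VPS genes, 6 were higher and 2 lower in SNB19, both as deposited and with median centring. As deposited, 47.1% were thus called, against 32.8% of all genes. VPS13A, a bridge-like lipid transfer protein mutated in chorea-acanthocytosis, had 6.91 and 6.96 with siRNA#1, 6.96 and 6.93 with siRNA#2, and 6.02 and 5.96 with scramble. The siRNA arrays lay together and well above scramble, 1.94-fold higher (0.95 ± 0.12, adjusted p = 0.00019), and its other probe sets changed by 1.3 and 0.48. VPS13B, the relative mutated in Cohen syndrome, rose 1.74-fold (0.80 ± 0.10, adjusted p = 0.000215), with 8.19 and 8.21 with siRNA#1, 8.11 and 8.04 with siRNA#2, and 7.39 and 7.30 with scramble. VPS41, of the HOPS complex that tethers late endosomes to lysosomes, and VPS35L, of the retriever complex that returns receptors from endosomes, rose by 0.44 and 0.43 (adjusted p = 0.00217 and 0.00178). These 4 kept their calls in every alternative run. VPS50 rose by 0.42 (adjusted p = 0.0428), but all its SNB19 arrays lay between 2.76 and 3.51, below the lower quartile, and it changed by 0.12 without scramble replicate 1 (adjusted p = 0.476). VPS26C, another retriever subunit, went down while VPS35L went up. Its values were 7.58 and 7.42 with siRNA#1, 8.02 and 8.03 with siRNA#2, and 8.42 and 8.41 with scramble. It fell by 0.65 ± 0.15 (adjusted p = 0.00783), a call that missed the threshold without scramble replicate 1 (0.0568) or 2 (0.0524). VPS11, a core subunit of HOPS, fell by 0.36 (adjusted p = 0.00434). VPS35 of the retromer was not analysed here.

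Of the 28 RAB GTPases, 4 were higher and 6 lower in SNB19 (35.7%, near the 32.8% of all genes). With median centring 6 were higher and 1 lower. RAB22A, RAB4A and RAB13 rose most. RAB22A, which acts in endosomal recycling, had 8.91 and 8.97 with siRNA#1, 8.97 and 8.90 with siRNA#2, and 7.96 and 8.07 with scramble, and was 1.89-fold higher (0.92 ± 0.10, adjusted p = 8.4e-05). RAB4A, which acts in fast recycling from early endosomes, had 9.51 and 9.54, 9.55 and 9.57, and 8.78 and 8.80, and was 1.68-fold higher (0.75 ± 0.08, adjusted p = 9.77e-05) with a change above 0 on all 3 of its probe sets. RAB13, known from tight junctions, had 11.05 and 11.02, 11.57 and 11.47, and 10.58 and 10.52, and was 1.65-fold higher (0.72 ± 0.09, adjusted p = 0.000233). In each of these the siRNA arrays did not overlap with scramble, and the calls held in every alternative run. Of the 6 lower RABs, RAB8A, which carries vesicles to the cell surface, fell by 0.41 (adjusted p = 0.00694) and RAB32, of lysosome-related organelles, by 0.38 (adjusted p = 0.0132). RAB5C, of early endosomes, fell by 0.33 (adjusted p = 0.0267) and RAB21 by 0.23 (adjusted p = 0.0255). The falls of RAB32 and RAB21 came from siRNA#1 (-0.59 and -0.4). With siRNA#2 they changed by -0.16 and -0.06, without passing the test (limma adjusted p = 0.318 and 0.605). RAB7A of late endosomes fell by 0.36 (adjusted p = 0.0215) and RAB11A of recycling endosomes by 0.25 (adjusted p = 0.0482). Their second probe sets changed by 0.24 and 0.30, and with probe sets averaged RAB7A changed by -0.06 (adjusted p = 0.626) and RAB11A by 0.03 (adjusted p = 0.861). Without scramble replicate 1 neither passed (adjusted p = 0.184 and 0.207). RAB5A, also of early endosomes, changed by -0.18 (adjusted p = 0.0645) and RAB27A, which docks secretory lysosomes, by -0.24 (adjusted p = 0.052), neither passing the test. Further probe sets changed by -0.12 for RAB5A, and by -0.45 and -0.38 for RAB27A. Of the 7 RAB partners, 1 was lower (14.3%, against 32.8% of all genes). This was RAB11FIP5 (-0.38, adjusted p = 0.0303), a call lost without any 1 of the SNB19 arrays. RAB11FIP2 changed by -0.21 (adjusted p = 0.285).

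RAB40B, which recruits a ubiquitin ligase, was high with siRNA#1 and close to scramble with siRNA#2. It had 9.10 and 9.08 with siRNA#1, 8.04 and 7.97 with siRNA#2, and 8.19 and 8.29 with scramble in SNB19. siRNA#1 stood above scramble by 0.85 (adjusted p = 0.000319) and siRNA#2 changed it by -0.24, without passing the test (adjusted p = 0.138). The direct difference, siRNA#2 minus siRNA#1, was -1.09 ± 0.11 (adjusted p = 0.000468). Between siRNA#2 and siRNA#1 in SNB19, 7 of the 98 members passed the test, 5 higher and 2 lower with siRNA#2, against 6.06% of all genes (3.08% higher and 2.98% lower). CTSS was 1.22 ± 0.15 higher with siRNA#2 (adjusted p = 0.00158), and CTSS and RAB40B kept this call in every alternative run. GABARAP and LAMP1 are given above. RAB13 and RAB21, an early endosome RAB that binds integrins, were higher by 0.49 and 0.34, and RAB3B, a RAB of secretory vesicles at a low level, was lower by 0.63 (adjusted p = 0.0268, 0.035 and 0.0327). The direct comparison uses no scramble array.

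In SF539 the same question gave fewer changes: CTSS, CTSL and RAB27B fell, and CTSO, VPS13A, VPS13D and RAB6B rose. There 13 of the 98 members passed the test, 8 higher and 5 lower, or 13.3%, against 9.82% of all genes (5.80% higher and 4.01% lower). With median centring the split was 6 higher and 9 lower, and 46.0% of all called genes were higher in place of 59.1%. The count rested on single arrays: it was 3 without scramble replicate 1, 5 without scramble replicate 2, 7 without either siRNA#1 array, and 34 and 22 without siRNA#2 replicate 1 and 2. Fitted on the SF539 arrays alone, 2 members were called. The share of all genes called in these runs is not given here, so these counts do not single out the members. With siRNA#1 alone 3 members passed, 1 higher and 2 lower, against 2.73% of all genes (1.61% higher and 1.11% lower). With siRNA#2 alone 22 passed, 13 higher and 9 lower, against 15.2% (8.66% and 6.5%). Both siRNAs share the SF539 scramble arrays.

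CTSS had 7.84 and 7.82 with siRNA#1, 7.77 and 7.26 with siRNA#2, and 8.85 and 9.10 with scramble in SF539. As in SNB19 every siRNA array was below both scramble arrays. It fell 2.47-fold (-1.31 ± 0.13, adjusted p = 0.000455), and its dimmer probe set changed by -0.98. CTSL had 12.02 and 11.98, 11.53 and 11.99, and 12.48 and 12.34, and fell by 0.53 ± 0.12 (adjusted p = 0.0189); the call was lost without scramble replicate 1 (0.141), scramble replicate 2 (0.0572) or siRNA#1 replicate 2 (0.0582). CTSO rose most among the cathepsins called. Its values were 7.62 and 7.79 with siRNA#1, 8.41 and 8.46 with siRNA#2, and 7.33 and 7.54 with scramble, with siRNA#2 well above and siRNA#1 just above scramble. It rose by 0.64 ± 0.09 (adjusted p = 0.00209), and the siRNAs differed by 0.73 ± 0.10 (adjusted p = 0.00966). CTSO and CTSS were the 2 of 13 called members whose SF539 calls held in every alternative run. CTSC, lower in SNB19, was higher here, with 9.06 and 9.0, 8.73 and 8.86, and 8.65 and 8.66, a rise of 0.25 ± 0.07 close to the threshold (adjusted p = 0.0481) that was lost under 14 of the 19 alternatives, among them median centring (0.103) and leaving out scramble replicate 1 (0.189) or 2 (0.151). Of the 13 interferon-stimulated genes, 13 were called lower in SNB19 and 4 in SF539, the lines in which CTSS also fell; their part in that fall was not tested.

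Among the VPS genes of SF539, 2 were higher and 0 lower (11.8%, against 9.82% of all genes). VPS13A had 6.30 and 6.11 with siRNA#1, 6.47 and 6.67 with siRNA#2, and 5.63 and 6.04 with scramble, close but not overlapping, and rose by 0.55 ± 0.12 (adjusted p = 0.0176); the call was lost without scramble replicate 1 (0.34, adjusted p = 0.141) or siRNA#1 replicate 1 (0.0563), and with its probe sets averaged (0.0793). VPS13D, a relative tied to mitochondrial clearance, had 7.11 and 7.10, 7.20 and 7.30, and 6.73 and 6.75, and rose by 0.44 ± 0.07 (adjusted p = 0.00567). Its call was lost only, among the alternatives run, with the SF539 arrays fitted alone (adjusted p = 0.069). However, its other probe sets changed by -0.03 and 0.46 in SF539. Of the V-ATPase genes, ATP6V1A and ATP6V0E2 rose by 0.40 and 0.36 (adjusted p = 0.00921 and 0.0252) and ATP6V0B, of the proton-carrying ring, fell by 0.34 (adjusted p = 0.0288). The second ATP6V1A probe set changed by -0.16, and the calls of all 3 were lost without scramble replicate 1 (adjusted p = 0.0606, 0.0639 and 0.224). No autophagy gene was called at an adjusted p under 0.05 with the mean of both siRNAs in limma, the only tool run; ATG14, of the lipid kinase complex that starts autophagosomes, came nearest at 0.24 (adjusted p = 0.0826, unadjusted p = 0.0112). Of the 13, 3 had an unadjusted p under 0.05, as did 2142 of all 8545 genes. With siRNA#2 alone ATG14 was called, higher by 0.38 (limma adjusted p = 0.0194).

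RAB27B, a RAB of exosome and granule secretion, had 6.11 and 5.56 with siRNA#1, 4.97 and 4.71 with siRNA#2, and 5.94 and 6.19 with scramble. The siRNA#1 arrays overlapped with scramble and those of siRNA#2 lay below, and siRNA#2 minus siRNA#1 was -0.99 ± 0.21 (adjusted p = 0.0391). The mean fall was 0.73 ± 0.18 (adjusted p = 0.0313), lost without scramble replicate 1 (0.0886), scramble replicate 2 (0.18), siRNA#1 replicate 2 (0.0743) or siRNA#2 replicate 2 (0.0535). RAB6B, a Golgi RAB of neurons, had 5.42 and 5.09, 5.51 and 6.19, and 4.94 and 4.79, and rose by 0.69 ± 0.17 (adjusted p = 0.0303), a call lost without either scramble array (0.109 and 0.161). RAB5B rose by 0.37 (adjusted p = 0.0276) and RAB21 fell by 0.27 (adjusted p = 0.033), and both calls were lost without either scramble array (0.117 to 0.153). LAMP2 in SF539 rose with siRNA#2 (0.67, adjusted p = 0.00715), with 11.72 and 12.01 against 11.10 and 11.29 with scramble, and siRNA#1 arrays at 11.38 and 11.14 overlapped with scramble; averaged over its probe sets the change was 0.22 (adjusted p = 0.2), and the call was lost without scramble replicate 1 (0.0542). RAB35, an endosome and surface RAB, fell with siRNA#2 by 1.06 (adjusted p = 0.0225), with 5.44 and 4.55 against 5.81 and 6.30, and by 0.62 without the lower array (adjusted p = 0.0759), and the call was also lost without scramble replicate 2 (0.119). Between siRNA#2 and siRNA#1 in SF539, 6 of the 98 members passed, 5 higher and 1 lower, against 2.72% of all genes (1.84% higher and 0.878% lower). Beside CTSO and RAB27B these were LAMP2, GABARAPL1, VPS13B and RAB5B, higher with siRNA#2 than with siRNA#1 by 0.60, 0.59, 0.55 and 0.46. GABARAPL1 had 6.66 and 6.80 with siRNA#1, 7.14 and 7.50 with siRNA#2, and 7.29 and 7.21 with scramble. Its siRNA#1 arrays were the low ones: against scramble it fell by 0.52 with siRNA#1 (adjusted p = 0.0493, 0.0502 with probe sets averaged and 0.185 without scramble replicate 1) and changed by 0.07 with siRNA#2 (adjusted p = 0.752). None of the 6 kept its call in every alternative run.

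The lines share no arrays, so their responses could be set against each other, although their p-values rest on a shared estimate of the spread. Of the 46 members called in SNB19 and the 13 in SF539, 9 were called in both (19.6% and 69.2%), against 477 of all genes (17.0% and 56.9%). These were ATP6V0B, ATP6V0E2, ATP6V1A, CTSC, CTSL, CTSO, CTSS, RAB21 and VPS13A. Of the 9, 8 had the same sign, CTSC being the exception, against 373 of the 477 over all genes. Taken by siRNA, only CTSS passed with each siRNA in both lines. In SF539, CTSC passed only with siRNA#1. ATP6V0B, ATP6V0E2, ATP6V1A, CTSL, CTSO, VPS13A and RAB21 (-0.38) passed there only with siRNA#2. In SNB19, RAB21 passed only with siRNA#1 (-0.4), and CTSO and ATP6V1A only with siRNA#2. Over all members, called or not, 60.2% had the same sign in both lines, against 58.3% of all genes. The difference itself (SF539 change minus SNB19 change) passed the test for 17 of the 98 members, or 17.3%, against 19.1% of all genes, with 12 above 0 and 5 below (10.8% and 8.30% of all genes); with median centring 4 were above and 13 below. The count was 8 without either SNB19 scramble array, 10 without SF539 scramble replicate 2 and 26 without SF539 siRNA#2 replicate 1.

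CTSC differed most, with a change of 0.25 in SF539 and -0.87 in SNB19 (difference 1.12 ± 0.10, adjusted p = 4.21e-05). CTSL fell less in SF539 (-0.53) than in SNB19 (-1.41), a difference of 0.88 ± 0.16 (adjusted p = 0.00472). CTSS did likewise, with -1.31 in SF539 and -2.19 in SNB19 (0.88 ± 0.19, adjusted p = 0.00962), although with its probe sets averaged the difference of 0.53 did not pass (adjusted p = 0.116). RAB4A rose in SNB19 and changed by 0.15 in SF539 (difference -0.60 ± 0.12, adjusted p = 0.00635). Its other probe sets changed by 0.95 and -0.13 in SF539, and by 1.31 and 0.78 in SNB19. CTSC, CTSL and RAB4A kept this call in every alternative run that could test it. The fit to each line alone could not, and CTSC and CTSL have 1 probe set each, so averaging left their values unchanged. RAB22A, VPS13B and RAB13, also higher in SNB19, had SF539 changes of 0.28, 0.21 and 0.17, with differences of -0.64, -0.58 and -0.56. ATG5, GABARAP and VPS26C, lower in SNB19, had SF539 changes of -0.12, 0.06 and 0.18, with differences of 0.37, 0.38 and 0.83. For ATG5 and GABARAP the 2 lines thus differed, a call that was lost for both with median centring, which called 0 of the 13 autophagy genes. The other ATG5 probe sets changed by -0.07 and -0.49 in SNB19, and by 0.24 and -0.4 in SF539, so the last changed much alike in both. GABARAP in SNB19 changed by -0.58 with siRNA#1 and by -0.06 with siRNA#2.

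**Figure D4:**
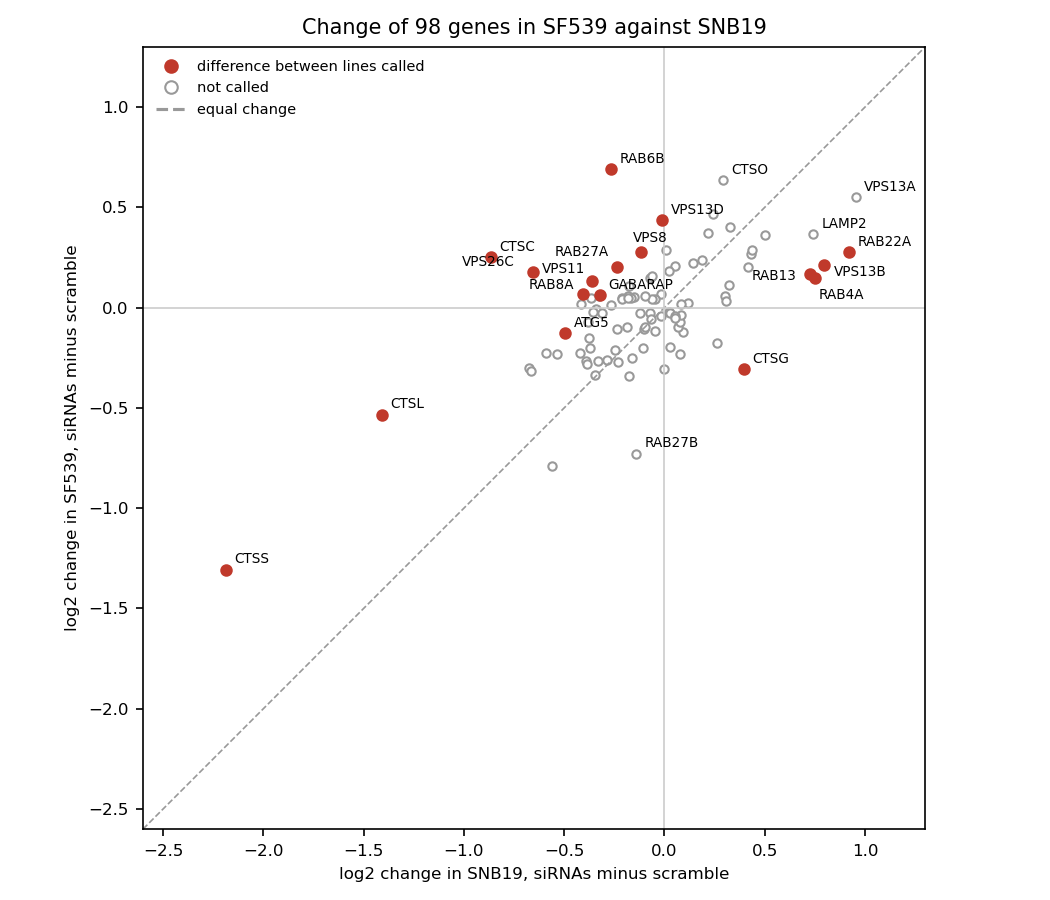
Log2 change with the PARK2 siRNAs in SF539 (vertical axis) against SNB19 (horizontal axis) for 98 members; the dashed line marks equal change. The 17 filled points differed between the lines, CTSC among them with changes of opposite sign, whereas CTSS and CTSL fell in both and fell further in SNB19.

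With scramble siRNA alone the lines differed in 57 of the 98 members, or 58.2%, against 49.3% of all genes, 29 higher and 28 lower in SF539 (24.6% and 24.7% of all genes); with median centring, which moves the median of all genes to 0.20, 35 were higher and 18 lower. The largest differences were of single members of a class. CTSZ had 11.99 and 11.92 in SF539 and 6.29 and 6.38 in SNB19, a difference of 5.62 ± 0.19 (49.1-fold, adjusted p = 8.6e-09), while its second probe set differed by 0.27. CTSH, an aminopeptidase, was the reverse, with 4.92 and 3.77 in SF539, near the lower quartile, and 9.19 and 8.87 in SNB19 (-4.68 ± 0.40, adjusted p = 6.07e-06). ATP6V0E2 had 5.16 and 5.02 in SF539 and 9.49 and 9.41 in SNB19, 20.6-fold lower in SF539 (-4.36 ± 0.10, adjusted p = 4.73e-10). Yet it rose with the PARK2 siRNAs in both lines, from these different levels. RAB4A (6.52 and 6.49 in SF539, 8.78 and 8.80 in SNB19) and CTSC (8.65 and 8.66 in SF539, 9.98 and 9.95 in SNB19) were also lower in SF539 (-2.29 and -1.31). RAB27B was higher in SF539 (5.94 and 6.19 in SF539, 4.10 and 3.76 in SNB19), by 2.13 ± 0.21 (adjusted p = 1.45e-05), but its SNB19 mean of 3.93 lay below the lower quartile, so the size is set against little signal. Also higher in SF539 were CTSO, ATP6V1B2 and RAB3B by 1.46, 1.20 and 1.17. RAB36 and CTSV, a close relative of CTSL, were lower by 1.89 and 1.64. These 10, CTSC aside, kept their calls in every alternative run.

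**Figure D5:**
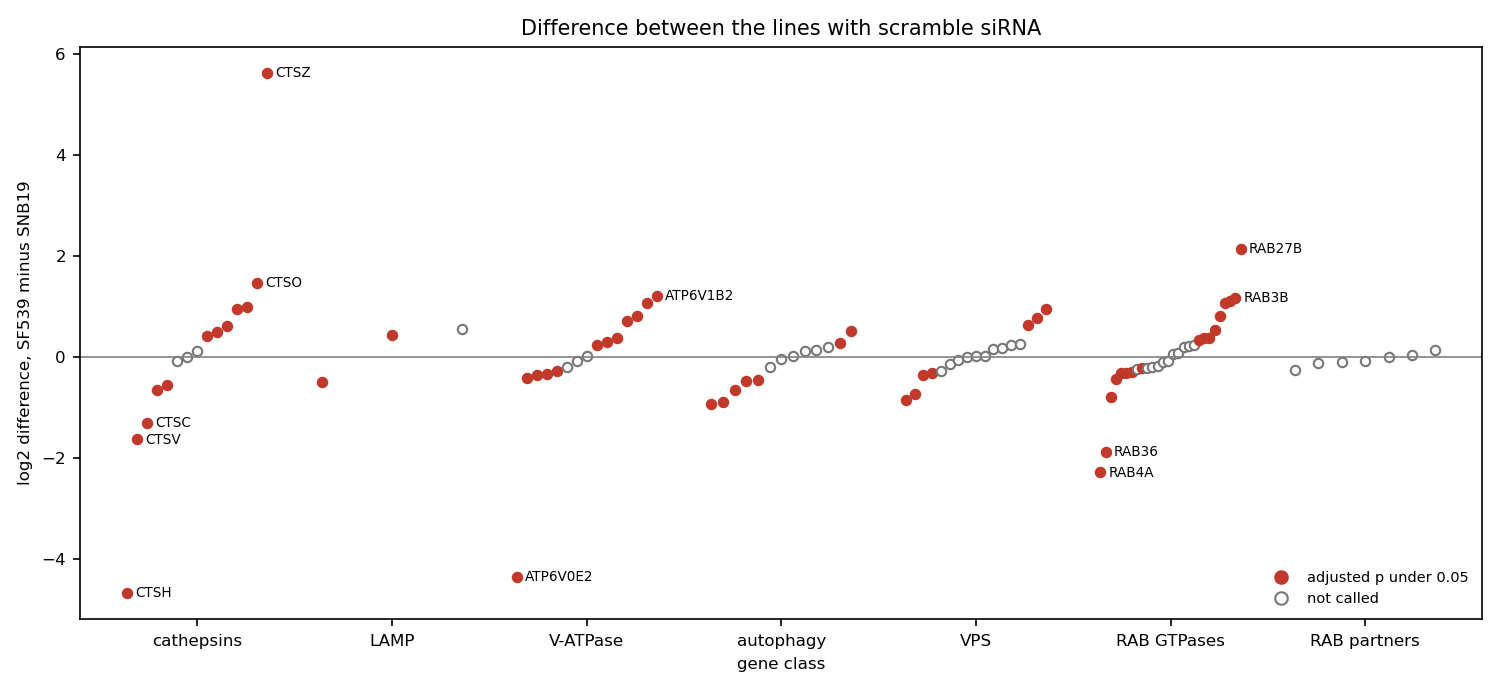
Log2 difference between SF539 and SNB19 with scramble siRNA (vertical axis) for each of the 98 members by class (horizontal axis, ordered within a class); filled points passed an adjusted p of 0.05. CTSZ is 5.62 higher and CTSH and ATP6V0E2 are 4.68 and 4.36 lower in SF539, the points farthest from 0.

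Other genes of these pathways were read from lists of lysosomal, autophagy and RAB-associated genes, whose share of calls is set beside the 32.8% of all genes in SNB19 and 9.82% in SF539. Of 25 lysosomal enzymes and activators, 3 were higher and 7 lower in SNB19, and 2 were higher and 0 lower in SF539. FUCA1, the lysosomal fucosidase, had 9.87 and 9.86 with siRNA#1, 9.62 and 9.60 with siRNA#2, and 11.24 and 11.17 with scramble in SNB19 (-1.47, adjusted p = 6.03e-06). In SF539 it ran the other way, with 9.54 and 9.82, 10.20 and 10.41, and 9.34 and 9.09 (0.78, adjusted p = 0.00225). SGSH, a heparan sulfatase, and LIPA, the acid lipase, fell by 0.86 and 0.82 in SNB19, whereas GM2A, the activator that presents gangliosides to hexosaminidase, rose by 0.90 there and by 0.31 in SF539. Of 18 genes of the membrane, sorting and cathepsin inhibition, 3 were higher and 4 lower in SNB19, and 2 higher and 2 lower in SF539. GNPTAB, which starts the mannose 6-phosphate tag that sends enzymes to lysosomes, rose in both lines. It had 9.33 and 9.34, 9.63 and 9.54, and 7.77 and 7.84 in SNB19 (1.66, adjusted p = 6.3e-06), and rose by 0.65 in SF539 (adjusted p = 0.00954). CST3, cystatin C, a secreted inhibitor of cysteine cathepsins, fell by 0.71 in SNB19 (adjusted p = 0.000376), and CSTB, the cytosolic stefin B, fell by 0.29 in SF539 (adjusted p = 0.0282). MITF rose by 0.62 and NPC1, a lysosomal cholesterol exporter, fell by 0.43 in SF539.

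Of 19 other autophagy genes, 2 were higher and 6 lower in SNB19 and 1 was higher and 1 lower in SF539. BNIP3, a receptor on mitochondria for autophagosomes, had 11.92 and 11.94 with siRNA#1, 10.90 and 10.98 with siRNA#2, and 12.32 and 12.34 with scramble in SNB19, and fell by 0.90 (adjusted p = 1.23e-05). In SF539 it rose by 0.77 (adjusted p = 0.000317). OPTN and CALCOCO2, receptors that link ubiquitin-tagged mitochondria to autophagosomes, fell by 0.66 and 0.62 in SNB19 (adjusted p = 0.000184 and 0.000215), and UVRAG, a partner of Beclin 1, by 0.59. MAP1LC3B, the LC3 protein of autophagosomes, fell by 0.36 in SF539 (adjusted p = 0.0256). Of 27 RAB regulators and endosome partners, 8 were higher and 9 lower in SNB19 (63.0%), and 1 was higher and 2 lower in SF539. TBC1D5 and TBC1D1, both RAB GTPase-activating proteins, rose by 0.92 and 0.80 in SNB19, RABGAP1L, another of them, fell by 0.78, and the fusion protein VAMP8 fell by 1.16. In SF539 RABEP1, a RAB5 effector, rose by 0.40, and HGS and RIN2 fell by 0.38 and 0.31.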

How the data were processed

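RNA from 12 samples was hybridised to Affymetrix arrays. The log2 values used are those deposited by the authors for 16376 probe sets; per the submitters' processing notes Partek was among the tools, while how background was corrected and arrays were normalized and summarised is not given in the sources used here. Array medians were 5.94 to 6.14, and 2 arrays per group limit the precision. Of the probe sets, 14038 carried 1 gene symbol, 792 several and 1546 none, by the platform annotation; 14028 matched a RefSeq gene (GRCh38.p14) by Entrez ID. Each of 8545 genes was read on its brightest probe set. A further 11 probe sets, annotated to several genes of which some fit the symbol rule, were not used.

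Group means of the 6 groups were fitted to all genes with limma 3.58.1 (R 4.3.3; 6 residual and 3.65 prior degrees of freedom), and p-values were Benjamini-Hochberg adjusted over 8545 genes at 0.05. The SE is that of the fit. The comparisons were both siRNAs or each siRNA against scramble within a line, siRNA#2 against siRNA#1, the lines with scramble, and the difference between lines. The fit was tested on simulated data. The 7 alternatives were a replicate block, the average over a gene's probe sets, median centring, quantile normalization, a filter on the dimmest 40% of genes, a trended robust prior and a fit to each line alone, and each of 12 arrays was also left out in turn. Figures were drawn with Python 3.11.15 and matplotlib 3.10.9.

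The members and gene lists were chosen with earlier results of these data known. Named genes were up to 10 called members in each direction with one sign for both siRNAs, up to 5 in the other comparisons, 2 per class by smallest p, a set of fixed members and up to 4 per list. ATP6V0A1, ATP6V1C1, ATP6V0A2, ATP6V1G1, ATG4A, ATG13, VPS11, RAB8A, RAB32, RAB5C, RAB21 in SNB19, the SNB19 values of CTSO, CTSG and ATP6V1A, and the line differences of ATG5 and GABARAP were added after their values were seen. The genes most like a member over the arrays were not named, because the lines form separate clusters.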

Additional observations from a re-analysis of the deposited data

Results flagged for a closer look

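For 17 members the test of the difference itself found that the change with the PARK2 siRNAs was not the same in both lines (SF539 change minus SNB19 change, limma adjusted p). The same test called 19.1% of all genes. The cathepsins CTSC, CTSL and CTSS had differences of 1.12 (adjusted p = 4.21e-05), 0.88 (0.00472) and 0.88 (0.00962), and CTSG one of -0.71 (0.0201), with a change of -0.31 in SF539 and 0.40 in SNB19. CTSC, CTSL and RAB4A kept the call under every alternative that could test it, which excludes the fit to each line alone. The autophagy genes ATG5 and GABARAP differed by 0.37 (0.0277) and 0.38 (0.0432), calls that were lost with median centring. The dimmest ATG5 probe set changed much alike in both lines, by -0.49 in SNB19 and -0.4 in SF539, and the third by -0.07 and 0.24.

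Among the VPS genes, VPS26C differed by 0.83 (0.0226), VPS11 by 0.49 (0.00995), VPS13D by 0.45 (0.0136), VPS8, a subunit of the CORVET tether of early endosomes, by 0.39 (0.0394), and VPS13B by -0.58 (0.0175). VPS13D changed by 0.44 in SF539 and -0.01 in SNB19 on its brightest probe set. Its other probe sets changed by -0.03 and 0.46 in SF539, and by -0.49 and 0.45 in SNB19. Among the RAB GTPases, RAB6B differed by 0.96 (0.0198), with a change of 0.69 in SF539 and -0.27 in SNB19. RAB8A, which carries vesicles to the cell surface, differed by 0.48 (0.0286) and RAB27A by 0.44 (0.0265). RAB22A, RAB4A and RAB13 differed by -0.64 (0.0111), -0.60 (0.00635) and -0.56 (0.0148), their SNB19 change being the larger. With each array centred on its median, 4 differences were above 0 and 13 below, in place of 12 and 5.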

How the results depend on the processing

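Across the 7 alternatives and 12 left-out arrays, 52 of the 108 named calls held in every run that could test them. The fit to each line alone cannot compare the lines, and the filter on dim genes left out 23 members. Averaging leaves the values of genes with 1 probe set unchanged. The count of called members was within 1.5 times its value except as follows. In SF539 it was 13 as deposited, 21 with the dimmest 40% of genes left out and 2 with the arrays of the line alone. With siRNA#1 in SF539 it was 3, 1 with the replicate block and 0 with the line alone, and with siRNA#2 it was 22 and 4 with the line alone. For siRNA#2 against siRNA#1 it was 7 in SNB19, 11 with a trended robust prior and 13 with the line alone, and 6 in SF539, 0 with the line alone. Median centring changed the split of the SNB19 calls to 20 higher and 12 lower. ATG12 and RAB11A reversed to 0.03 in SNB19 with the mean of probe sets. Leaving out 1 array gave 20 to 51 members in SNB19, 3 to 34 in SF539 and 8 to 26 for the line difference. For siRNA#1 and siRNA#2 it gave 20 to 40 and 20 to 46 in SNB19, and 0 to 7 and 12 to 37 in SF539. For siRNA#2 against siRNA#1 it gave 2 to 14 in SNB19 and 0 to 24 in SF539, and for the lines with scramble 43 to 61. The share of all genes called in the same runs was not set beside these counts, so they do not single out the members. The cause of these shifts was not tested. Where a group was left with 1 array, it was assumed to vary like the others.

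Replicate numbers did not pair the arrays: same-numbered arrays had deviations that correlated between -0.18 and 0.109. With the replicate block 44 members were called in SNB19, 13 in SF539 and 18 for the line difference, 30 and 32 for siRNA#1 and siRNA#2 in SNB19, 1 and 23 in SF539, 6 and 4 for siRNA#2 against siRNA#1 in SNB19 and SF539, and 55 for the lines with scramble. Of the members, 10 had a mean below 3.98, where signal over background limits what can be read.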
